A study of Harpegnathos saltator with 12 samples.

Results

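Close pairs of Kr-h1 binding peaks in the ant brain are described here. A close pair was taken as exactly 2 neighbouring peaks on a scaffold, less than 5000 bp apart and with no further peak within that distance, each narrower than 1500 bp. By this rule 548 pairs were found, made of 1096 of the 5033 peaks listed for the whole series (21.8%), on 235 of 393 scaffolds. The 548 pairs were 67.8% of the 808 places where 2 or more peaks lay within 5000 bp of each other. Another 79 groups of exactly 2 peaks were left out because at least 1 of their peaks was 1500 bp wide or more, and 181 groups held 3 or more peaks. The members were chosen by peak position and width. Because these come from the same peak call as the fold enrichment, every value below is a description of the list and none was tested.

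Krüppel homolog 1, or Kr-h1, belongs to the zinc-finger transcription factors. Its gene is switched on by juvenile hormone, and the factor is best known for holding back the adult programme during larval life. In adult social insects it is known for a part in caste and reproduction. Transcription factors often occupy several sites in the same stretch of regulatory DNA, and chromatin immunoprecipitation followed by sequencing (ChIP-seq) shows such sites as separate peaks when they lie further apart than the sheared DNA fragments blur the signal. Which genes lie near the pairs was not analysed here.

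The chromatin came from the central brain of Harpegnathos saltator, a ponerine ant in which workers can turn into egg-laying gamergates. Of the 12 samples, 3 were Kr-h1 ChIP from workers, 3 were Kr-h1 ChIP from gamergates, and 3 of each caste were input chromatin, with a custom antibody lot used for the ChIP. Per the labels, nests without a reproductive were founded with 25 young females aged 5 days and 3 males, and oocytes were scored when the colony was collected at day 120. Collections at days 10 and 20 are also mentioned. The labels name no strain and do not say which of these days applies to each sample or whether brains were pooled. The deposited list gives 1 position and 1 fold enrichment per peak, with no sample or caste named and pooling not stated. The fold enrichment was taken here as the authors' ratio of ChIP signal over background. The castes were therefore not compared, no replicate error is available for any pair, and the depth is unknown. Coordinates are those of the authors' scaffolds (genome build not given).

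Within the 5000-bp limit, short gaps were the most frequent. The gap from the end of the lower-coordinate peak to the start of the other had a median of 1790.5 bp (95% interval of the median over 548 pairs 1533 to 2072 bp), with quartiles of 671.5 and 3279 bp and a range of 182 to 4995 bp. Measured between peak centres the median distance was 2485 bp (interval 2236 to 2689 bp), and from the outer edge of the first peak to the outer edge of the second the median pair covered 3164 bp. This median depends on the limit: it was 755 bp with a limit of 2000 bp and 3299.5 bp with a limit of 10000 bp. A gap of 250 to 499 bp was seen in 76 pairs and a gap under 250 bp in 31, whereas every 250-bp step from 1750 bp up to the 5000-bp limit held between 16 and 27 pairs. Since no pair had a gap under 182 bp, the step under 250 bp was filled only from 182 bp upward. Its lower count therefore does not show that such gaps were rarer per bp. In all, 34.3% of pairs (188 of 548, interval 30.5 to 38.4%) had a gap under 1000 bp and 46.7% (256 pairs) a gap of 2000 bp or more. In 112 pairs (20.4%) the gap was shorter than the narrower of the peaks beside it, and in 328 pairs (59.9%) it was longer than both peaks together. Centre distances were most frequent from 1250 to 1499 bp, with 66 pairs.

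**Figure D1:**
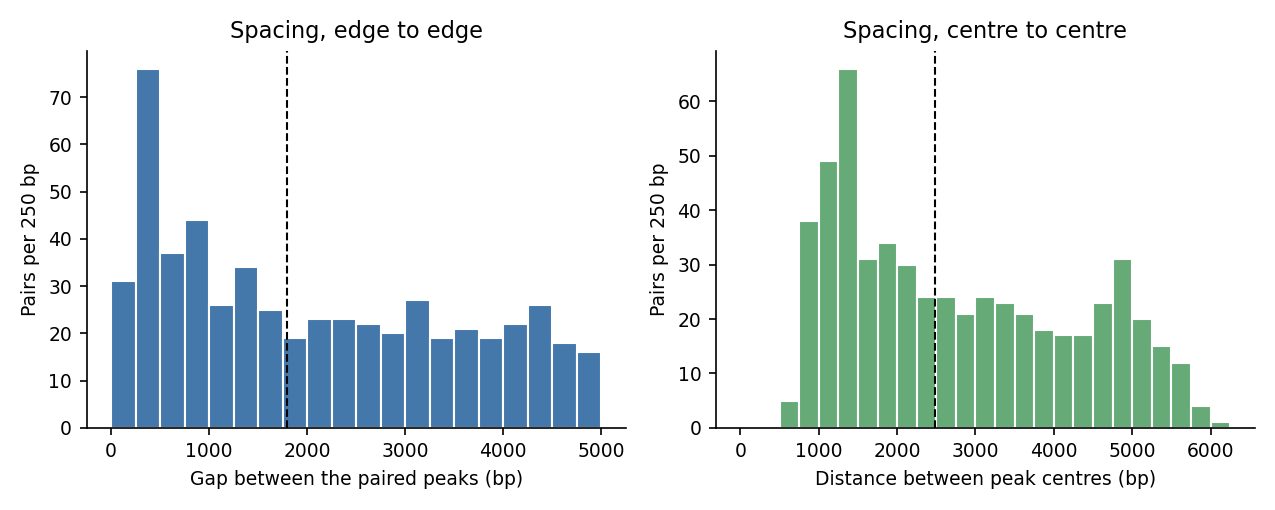
Histograms of the gap between the peaks of each of 548 pairs (left, bp) and of the distance between their centres (right, bp), in steps of 250 bp, with dashed lines at the medians of 1790.5 and 2485 bp. Gaps of 250 to 499 bp form the tallest bar on the left, with 76 pairs, and the counts level off beyond about 1750 bp. The first bar holds only gaps of 182 bp or more, the smallest found in a pair. The limit of 5000 bp on the gap is part of the rule.

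The 6 pairs with the smallest gaps had gaps of 182 to 194 bp. On scaffold652 a peak of fold 3.34 from 255540 to 256102 was followed after 182 bp by a peak of fold 4.43 that ended at 256896. On scaffold434 a peak of fold 9.13 (606701 to 607245) and a peak of fold 11.6 (607428 to 608126) were 183 bp apart. The pair on scaffold51 with a gap of 184 bp was unequal, with a fold of 19.0 from 1918320 to 1919259 and a fold of 3.44 from 1919443 to 1919899. The next pair in this order, on scaffold381 from 1541594 to 1543257, had a gap of 191 bp and folds of 3.39 and 4.58. It was followed by a pair on scaffold8 from 2286101 to 2287722, with a gap of 192 bp and folds of 5.36 and 6.06, and by a pair on scaffold16 from 1546990 to 1548514, with a gap of 194 bp and folds of 4.43 and 11.7. These 6 tight pairs held weak, middling and strong peaks, and the ratio of stronger to weaker fold among them ran from 1.13 to 5.54.

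Most pairs held at least 1 weak peak. The stronger peak of a pair had a median fold of 5.88 (interval 5.58 to 6.24), with quartiles of 4.46 and 10.2 and a maximum of 65.0. The weaker peak had a median of 3.74 (interval 3.65 to 3.86), with quartiles of 3.25 and 4.91 and a maximum of 27.1. In 320 pairs (58.4%, interval 54.2 to 62.4%) the weaker peak had a fold between 3 and 4. In 85 pairs (15.5%) both peaks did. Peak by peak, a fold under 4 was no more frequent in pairs than among solitary peaks. It was found in 37.0% of paired peaks, 38.5% of solitary peaks under 1500 bp and 35.6% of all listed peaks. Solitary neighbours 5 to 20 kb apart had a median weaker fold of 3.71. The lowest fold of a paired peak was 3.00. A lower limit near 3 is read from these values, since the threshold of the list is not given. With such a limit a weaker partner would not be listed, and the weak side of the pairs would be cut off.

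The stronger peak exceeded the weaker by a median factor of 1.42 (interval 1.37 to 1.46). In 309 pairs (56.4%, interval 52.2 to 60.5%) the folds were within 1.5 times of each other, and in 84 pairs they were within 1.1 times. At the other end, 139 pairs (25.4%) differed by more than 2 times, 51 by more than 4 times and 7 by more than 10 times. Equal folds were listed for 2 pairs, named here after their values were seen. These lay on scaffold295 from 2347900 to 2352645, with both folds 4.85 and a gap of 3625 bp, and on scaffold8 from 1740352 to 1742030, with both folds 3.56 and a gap of 407 bp. Neither side of a pair was favoured: the stronger peak had the lower coordinate in 274 pairs and the higher in 272 (50.2% of 546, interval 46.0 to 54.4%). Scaffold direction is arbitrary, so this share carries no reference to genes.

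**Figure D2:**
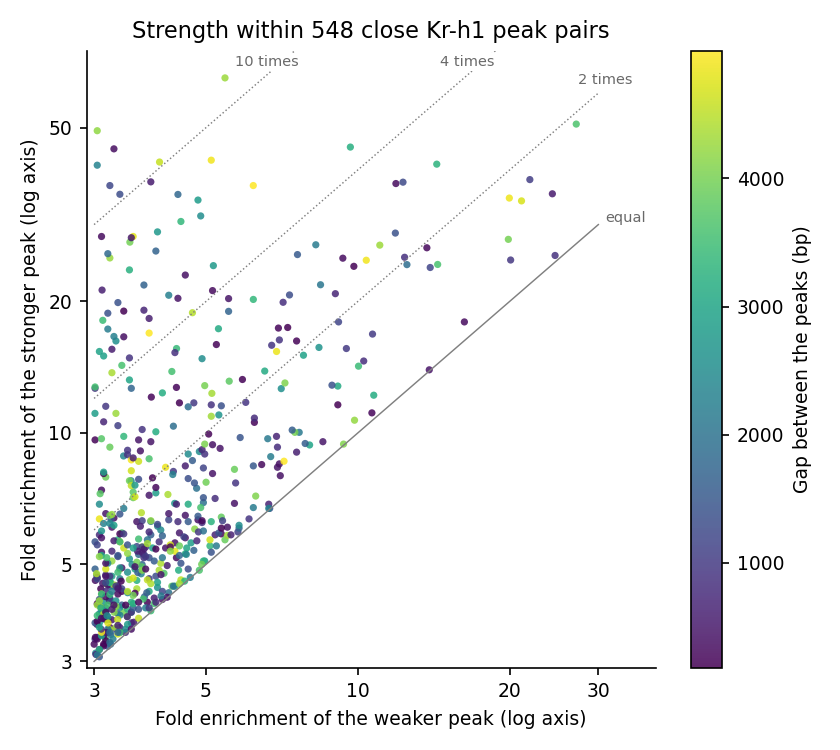
Fold enrichment of the stronger peak against that of the weaker peak for 548 pairs, on log axes, coloured by the gap in bp. The solid line marks equal folds and the dotted lines ratios of 2, 4 and 10. Most points crowd in the corner of low folds, 51 lie above a ratio of 4, and short and long gaps are mixed throughout.

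Pairs of 2 strong peaks were few. A fold of 10 or more was reached by both peaks in 26 pairs (4.74%, interval 3.26 to 6.86%), by 1 peak in 115 pairs and by neither in 407. In this list a strong peak had a strong partner more often than another paired peak did. Of the 167 paired peaks of fold 10 or more, 52 (31.1%) had a partner that was also 10 or more. Of the other 929, 115 (12.4%) had one. The product of the shares gives 12.7 pairs with both peaks strong, beside the 26 listed. No interval is given for these shares, since each pair enters through both of its peaks. Solitary neighbours under 1500 bp wide and 5 to 20 kb apart showed a like pattern. Here a peak was counted with each such neighbour, so unlike a paired peak it could be counted again. Of the 205 strong peaks counted in this way 25.4% had a strong neighbour, beside 13.1% of the other 1165. Both were strong in 26 of 685 cases, beside 15.3 from the product of shares. At a fold of 20 or more, both peaks qualified in 6 pairs, and 59 pairs held at least 1 such peak.

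The pair with the strongest weaker peak lay on scaffold213. Its first peak ran from 1042952 to 1043969 with a fold of 51.0, and its second from 1047592 to 1048541 with a fold of 27.1, across a gap of 3623 bp. The nearest other peaks were 44058 bp before and 84324 bp after it, so the pair stood apart from other listed binding. On scaffold855 the peaks from 260255 to 260920 and from 261780 to 262401 were nearly equal, with folds of 24.6 and 25.5, and lay 860 bp apart. It was the last listed group of its scaffold, and the nearest peak on the lower side was 209364 bp away. The pair on scaffold132 from 825911 to 828237 had a gap of 526 bp and folds of 24.3 and 35.3.

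The next pairs by the fold of their weaker peak kept both peaks near 20 or above. On scaffold86 the folds were 38.0 (1430710 to 1431727) and 21.9 (1432776 to 1433689), 1049 bp apart. On scaffold252 they were 34.0 (933907 to 934875) and 21.1 (939583 to 940374), 4708 bp apart, and another peak followed 6325 bp further on. On scaffold80 they were 24.9 (1117485 to 1118425) and 20.1 (1119382 to 1120390), 957 bp apart. The pair on scaffold182 from 2003879 to 2010140 had folds of 34.5 and 20.0 across 4875 bp, and the pair on scaffold381 from 881942 to 888059 had folds of 19.9 and 27.8 across 3996 bp. In these 8 strong pairs the gaps thus ran from 526 to 4875 bp, nearly the whole width the rule allows, and the ratio of folds from 1.04 to 1.88.

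Some strong pairs were also close to balanced. The most even of the 26 lay on scaffold26, where folds of 13.9 (273213 to 273792) and 14.0 (274224 to 274931) were separated by 432 bp, a ratio of 1.01. The scaffold855 pair described above came next, with a ratio of 1.04. On scaffold33 the folds were 10.7 (876082 to 877116) and 11.1 (877358 to 877961), 242 bp apart. On scaffold3 they were 16.3 (157689 to 158705) and 18.0 (159028 to 159611), 323 bp apart. All 4 of these balanced pairs had gaps under 1000 bp. Over all 26 pairs with both peaks strong, however, only 10 had such a gap (38.5%, interval 22.4 to 57.5%), beside 34.8% of the 115 pairs with 1 strong peak and 33.9% of the 407 with none.

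Apart from the scaffold109 pair, the 6 most unequal pairs joined a very strong peak to one near the lowest folds listed. On scaffold708 a peak of fold 49.2 (411532 to 412392) followed a peak of fold 3.04 (406761 to 407344), a ratio of 16.2 across 4188 bp. On scaffold4 a peak of fold 44.7 (897612 to 898537) was followed after only 370 bp by a peak of fold 3.28 (898907 to 899335), a ratio of 13.6. On scaffold203 the folds were 41.0 (21083 to 21962) and 3.04 (24295 to 24734), 2333 bp apart. The pair on scaffold109 held the strongest peak of all 1096, with a fold of 65.0 from 398898 to 399844. It is also the only paired peak among the 15 strongest of the whole list. Paired peaks make up 21.8% of that list, which includes peaks of 1500 bp or more that the rule keeps out of pairs. The partner of the scaffold109 peak, from 394127 to 394635, had a fold of 5.45. Ratios of 11.4 and 10.4 were found on scaffold77 (253658 to 256426, folds 3.22 and 36.9) and scaffold132 (735790 to 738321, folds 3.37 and 35.2). In these 6 pairs the weaker peak was narrower than the stronger, at 428 to 672 bp beside 732 to 946 bp.

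**Figure D3:**
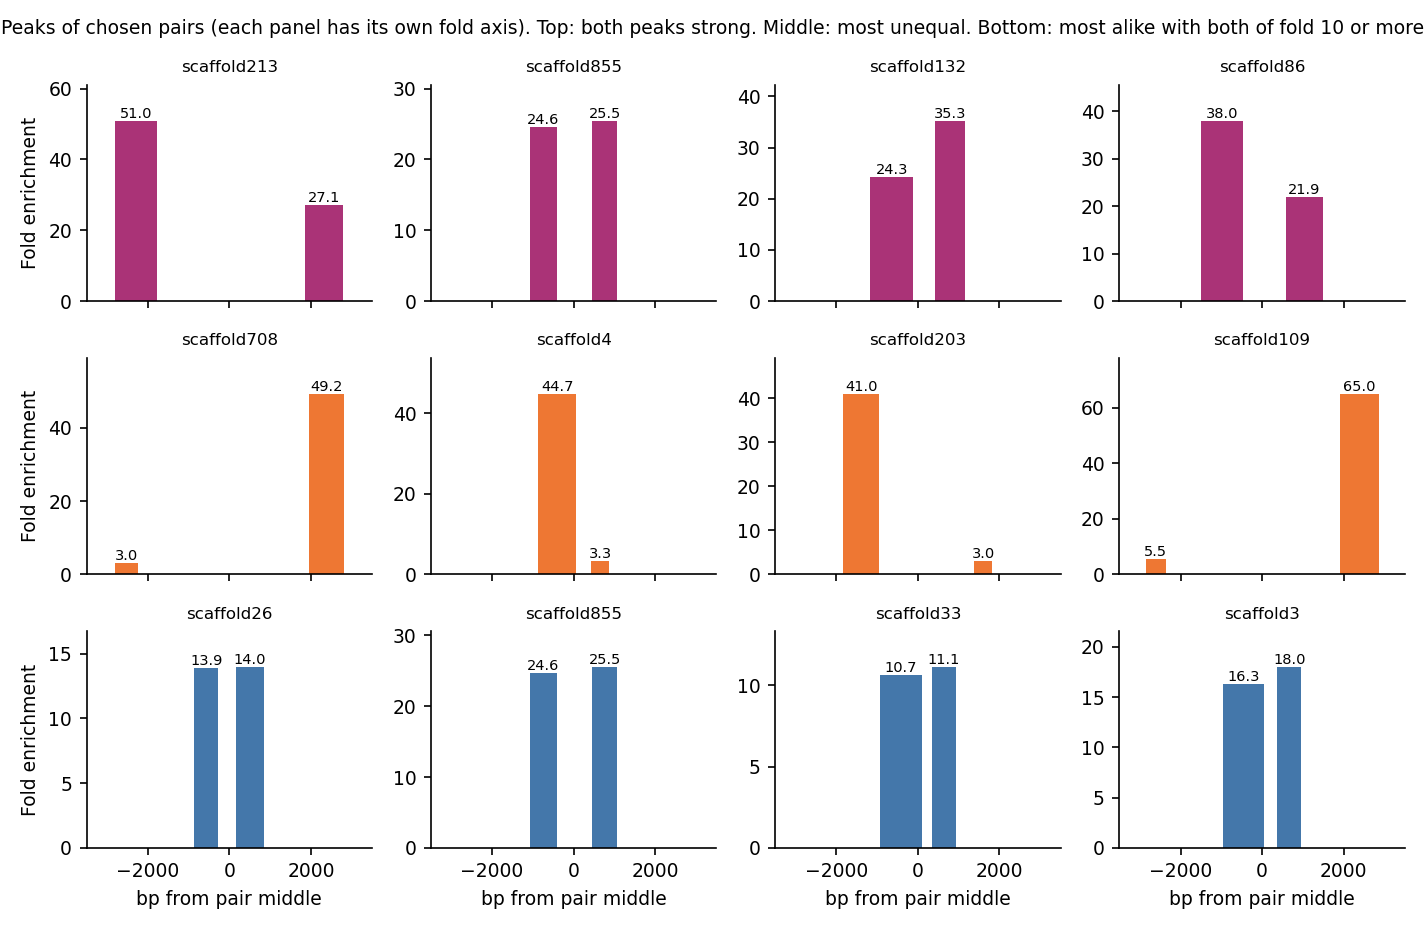
Position and fold enrichment of the peaks of chosen pairs, with the distance from the middle of the pair in bp on the x axis and the fold on the y axis, which differs between panels. Each bar spans the width of a peak and its height is the fold, printed above it. The top row shows the pairs with the strongest weaker peaks (folds 51.0 and 27.1 on scaffold213), the middle row the most unequal (3.04 and 49.2 on scaffold708), and the bottom row the most even with both folds of 10 or more (13.9 and 14.0 on scaffold26). The scaffold855 pair is in both the top and the bottom row.

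The folds of the peaks within a pair were weakly related. The rank correlation of the lower-coordinate with the higher-coordinate fold was 0.18 over 548 pairs (Pearson's r of log2 folds 0.22). It was 0.25 over the 292 pairs with a gap under 2000 bp (Pearson's r 0.26) and 0.09 over the 256 with a longer gap (Pearson's r 0.17). The order was uneven between narrower bands (0.31 under 500 bp, 0.16 at 500 to 1000 bp and 0.27 at 1000 to 2000 bp). With a limit of 10000 bp on the gap the correlation over 634 pairs was 0.24. That limit adds longer gaps but also drops the 131 pairs that had another peak within 10 kb, so the sets of pairs differ. No fall with the gap is therefore read from these values. The peaks of a pair share their scaffold, and the values are given as a description without a p-value. Widths within pairs had a rank correlation of 0.12, which was -0.0015 among peaks at or above the median fold. The difference between the correlations of fold and width was not tested, and with a width limit of 1000 bp both were 0.13 to 0.14.

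Strength and inequality hardly varied with the gap in this list. The rank correlation of the gap with the ratio of folds was 0.02 over 548 pairs (approximate interval -0.06 to 0.11), and with the fold of the stronger peak it was -0.00. Pairs with a gap under 500 bp (107 pairs) had median folds of 6.06 for the stronger and 3.68 for the weaker peak, with a median ratio of 1.35 (interval 1.28 to 1.57). Pairs with a gap of 4000 bp or more (82 pairs) had median folds of 5.61 and 3.68, with a median ratio of 1.45 (interval 1.30 to 1.67). The 4 bands in between had median ratios of 1.40 to 1.44. Folds within 1.5 times of each other made up 57.9% of the closest band and 52.4% of the widest, and these intervals overlap (48.5 to 66.9% and 41.8 to 62.9%).

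**Figure D4:**
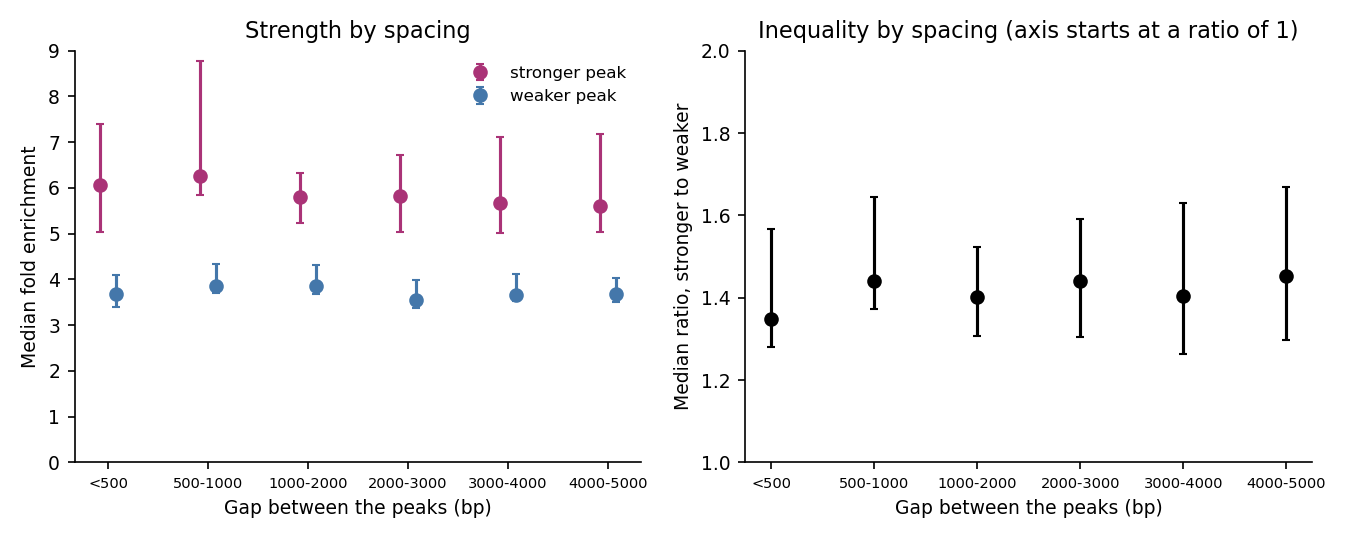
Median fold enrichment of the stronger and weaker peak (left) and median ratio of the stronger to the weaker fold (right, axis from 1) by the gap between the peaks in bp, in 6 bands of 81 to 107 pairs. Points are medians and bars their 95% intervals over pairs. Medians stay between 5.61 and 6.27 for the stronger peak and between 3.55 and 3.86 for the weaker, and the intervals of the ratio overlap in all bands.

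Peaks that stood alone gave a yardstick for these ratios. Neighbouring solitary peaks under 1500 bp wide and 5 to 20 kb apart (685 cases) had a median ratio of 1.42 (interval 1.37 to 1.49), the same to 2 decimals as close pairs. Their folds were within 1.5 times of each other in 54.7% of cases (interval 51.0 to 58.4%), beside 56.4% for close pairs. For solitary neighbours 20 to 100 kb apart (884) the median ratio was 1.62 (interval 1.54 to 1.71) and the share 43.8% (interval 40.5 to 47.1%). In both bands a solitary peak with such a neighbour on each side was counted with each, so these intervals cover overlapping cases. The rank correlation of fold was 0.16 at 5 to 20 kb and 0.02 at 20 to 100 kb, beside 0.18 within pairs. Solitary neighbours in the further band also included more strong peaks: at least 1 fold of 10 or more was found in 35.6% of them, beside 26.1% in the nearer band and 25.7% (141 of 548) of close pairs.

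Paired and solitary peaks had close medians of strength and width. The 1096 paired peaks had a median fold of 4.61 (interval 4.46 to 4.80), and 15.2% of them (167, interval 13.2 to 17.5%) reached a fold of 10. The 2921 solitary peaks under 1500 bp had a median of 4.55 (interval 4.46 to 4.67), and 17.4% (interval 16.0 to 18.8%) reached 10. The 568 peaks under 1500 bp in groups of 3 or more had a median of 4.94 (interval 4.70 to 5.39), with 18.8% at 10 or more. Median widths were 661, 656 and 660 bp in the same order. The sets were not limited alike: a paired peak needed a partner under 1500 bp, whereas peaks of larger groups were kept beside neighbours of any width. With no width limit the median fold of paired peaks was 4.73. Paired peaks numbered 65 of the 356 peaks of fold 20 or more in the whole list and 2 of the 34 of fold 50 or more, the scaffold109 and scaffold213 peaks named above. They make up 21.8% of that list, which also holds the wider peaks that the rule keeps out. A fold of 20 or more was reached by 5.9% of paired peaks and 6.6% of solitary peaks under 1500 bp. The difference between these sets was not tested.

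**Figure D5:**
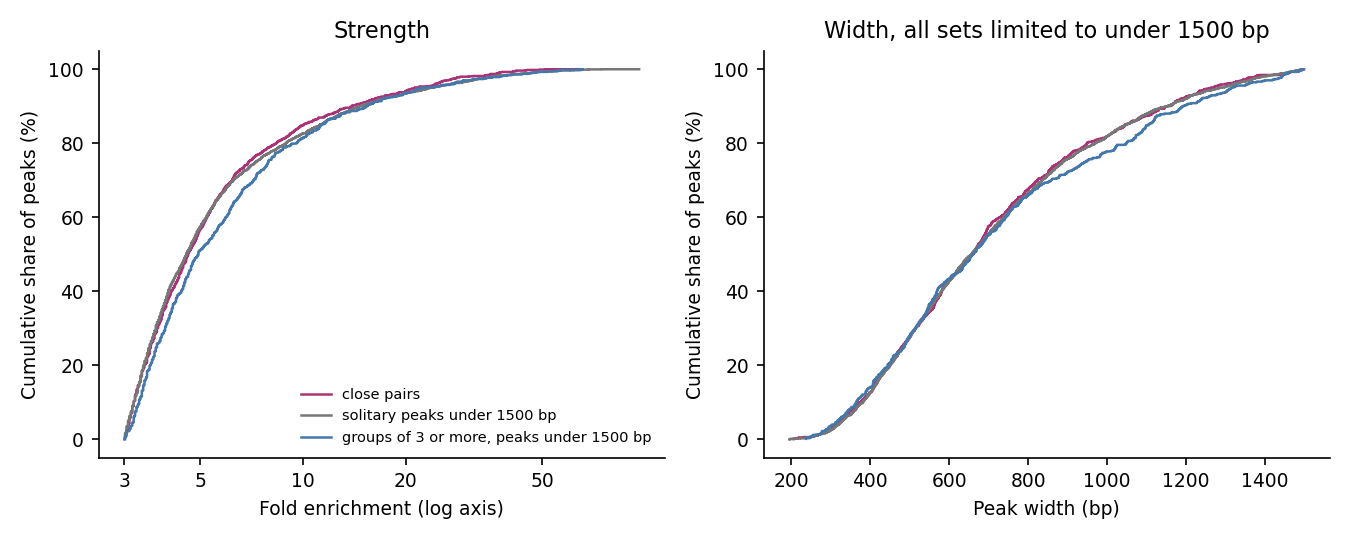
Cumulative share of peaks (%) by fold enrichment (left, log axis) and by width in bp (right) for 1096 paired peaks, 2921 solitary peaks and 568 peaks of larger groups, all under 1500 bp wide. The curves of paired and solitary peaks nearly coincide, with medians of 4.61 and 4.55 for fold and 661 and 656 bp for width. The curve of the larger groups lies to the right in fold near its median of 4.94. At a fold of 20 or more its share was 6.5%, beside 6.6% of solitary and 5.9% of paired peaks.

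The stronger peak of a pair tended to be the wider. Stronger peaks had a median width of 698 bp (interval 674 to 746 bp) and weaker peaks 593.5 bp (interval 572 to 633 bp). Leaving out the pairs with equal folds or equal widths, the stronger peak was the wider in 339 of 545 pairs (62.2%, interval 58.1 to 66.2%). The share was 55.6% where the folds were within 1.5 times of each other, 71.6% where they differed by 2 to 4 times and 86.3% (44 of 51, interval 74.3 to 93.2%) where they differed by more than 4 times. Solitary neighbours 5 to 20 kb apart showed the wider peak as the stronger in 61.0% of cases. Width and fold come from the same call, and their rank correlation over the 1096 paired peaks was 0.36. Both peaks were under 500 bp wide in 52 pairs and both 1000 bp or more in 18.

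Pairs were spread over the scaffolds: 111 scaffolds held 1 pair, 43 held 2 and 26 held 5 or more. Scaffold8 held most, with 10 pairs made of 20 of its 61 peaks (32.8%), between 708888 and 2416301. No peak of these 10 pairs reached a fold of 10, the highest being 9.28 in the pair from 798626 to 803679, and in 8 of them the folds were within 1.5 times of each other. Over all 548 pairs, 141 held a peak of fold 10 or more, and 56.4% had folds within 1.5 times of each other. Scaffold4 had 8 pairs, made of 43.2% of its 37 peaks. A fold of 10 or more occurred in 5 of its pairs but never in both peaks, and only 2 pairs had folds within 1.5 times of each other. Beside the pair of fold 44.7 and 3.28 named above, scaffold4 held a pair of fold 41.7 and 4.04 (1567399 to 1573422), a pair of fold 9.82 and 24.1 only 218 bp apart (1319169 to 1321403), and pairs of fold 19.0 and 5.54 (602147 to 605127) and 17.3 and 5.29 (1250646 to 1256083).

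Scaffold38 and scaffold51 also held 8 pairs each, 23.5 and 22.5% of their peaks. On scaffold38 a fold of 10 was reached once, by the peak of fold 16.9 in the pair from 2198563 to 2204839. Its pair from 1174238 to 1178667 had folds of 8.03 and 9.39. On scaffold51 it was reached in 3 pairs, with folds of 16.2 and 7.56 (1718673 to 1720982), 3.19 and 18.8 (1878864 to 1881487), and 19.0 and 3.44 (the tight pair described above). The contrast between the even, weak pairs of scaffold8 and the uneven pairs of scaffold4 was noticed after the values were seen and was not tested.

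Outside a pair the next listed peak was usually well beyond the 5000 bp that the rule demands. The nearest other peak was a median of 19181 bp away (interval 17140 to 21389 bp, 539 pairs), within 10 kb for 131 pairs and 50 kb or more away for 91. The remaining 9 pairs were the only peaks of their scaffold. The distance to the next peak and the fold of the stronger peak had a rank correlation of 0.01 over 539 pairs.

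The limits of the rule cut through a continuous range of gaps and widths. The pairs with the widest gaps inside the limit lay on scaffold93 (3217507 to 3224558, 4995 bp, folds 36.9 and 6.21), scaffold38 (the pair with the peak of fold 16.9, 4988 bp) and scaffold82 (129496 to 136124, 4982 bp, folds 8.62 and 7.14). The nearest gaps outside it were 5004 bp on scaffold846, 5006 bp on scaffold38 and 5007 bp on scaffold93, before peaks of fold 3.67, 3.71 and 5.42. The widest members were 1499 bp on scaffold7 (795599 to 797098, fold 23.6), 1494 bp on scaffold4 (fold 17.3) and 1493 bp on scaffold467 (77650 to 79143, fold 12.6). The narrowest peaks that kept a group of 2 out were 1511 bp on scaffold285 (fold 4.28), 1514 bp on scaffold13 (fold 5.21) and 1525 bp on scaffold515 (fold 4.91). The 158 peaks of the 79 groups left out for width had a median fold of 5.76 (interval 5.18 to 6.90).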

How the data were processed

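ChIP and input libraries were made from workers and gamergates, 3 samples per group. The submitters' processing notes name Bowtie2 2.2.6 and MACS2 2.1.1.20160309 beside bcl2fastq, Trimmomatic and SAMtools, without settings. Per the labels, Kr-h1 libraries had 13 PCR cycles and inputs 5. The authors deposited 1 peak list, which per the file headers holds a scaffold, its coordinates and a fold enrichment. The fold enrichment was taken as a linear ratio, which the headers do not state. For threshold, duplicates, pooling and build, settings are not given in the sources; starts may be off by 1 bp. Width is end minus start.

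Pairs were formed and summarised in pandas 2.3.3, scipy 1.17.1 and numpy 2.4.6 under Python 3.11.15. On a simulated list the code was tested for the number of pairs, the median gap, the median ratio and the share with the lower-coordinate peak stronger. Its other parts were not tested in this way. Medians have exact binomial 95% intervals, shares Wilson intervals, and correlations approximate Fisher intervals; all treat pairs as independent and describe the list, not animals. No gene and no sequence was used here. The named pairs were the 8 with the highest weaker fold, the 6 with the highest ratio, the 6 with the smallest gap, the 4 most even with both folds of 10 or more, those of the 4 scaffolds with most pairs, and those at the limits. The members and lists were chosen with earlier results of these data known.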

Additional observations from a re-analysis of the deposited data

How the results depend on the processing

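No paired analysis was possible because the list carries no value per sample, and for the same reason no replicate could be left out. Of 112 values recomputed under 7 alternatives, 83 stayed within their interval (counts within 1.5 times). Limits of 2000, 3000 and 10000 bp on the gap moved the median gap, by construction, to 755, 997 and 3300 bp (3299.5), the share under 1000 bp to 64.2, 50.1 and 24.0%, and the distance to the next peak to 12756 (12755.5), 15286 and 24827 bp. At 2000 bp the rank correlation of folds was 0.27, and at 10000 bp that of gap and ratio was -0.071. A width limit of 1000 bp gave median folds of 5.50, 3.59 and 4.41 for stronger, weaker and all paired peaks, 61.2% of pairs within 1.5 times and a median width of 581.5 bp, and no width limit gave 686.5 bp. With peaks at or above the median fold only, 189 pairs were left, with a median gap of 1457 bp, 39.2% under 1000 bp, median folds of 10.03, 6.21 and 7.62, both peaks at 10 or more in 15.9%, a median width of 722.5 bp and the next peak 32305 bp away. The rank correlation of widths then changed from 0.12 to -0.0015. Merging peaks less than 500 bp apart gave a median gap of 2360 bp and 18.7% under 1000 bp. Apart from the effect of the changed limits themselves, the cause was not tested. The ratio of folds and the share with the stronger peak wider stayed within their intervals in all 7. Depth limits are unknown.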

Other observations

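Pairs adjoined other pairs at 77 places, with a median distance of 29010 bp between them and less than 10 kb at 12 of them. The closest were on scaffold160, where a pair from 37691 to 39559 (folds 3.31 and 3.56) was followed after 5243 bp by a pair from 44802 to 48899 (folds 3.04 and 4.73). On scaffold132 the unequal pair of fold 3.37 and 35.2 and the strong pair of fold 24.3 and 35.3 were direct neighbours, 87590 bp apart, with no other listed peak between them. A further pair on that scaffold, from 1022411 to 1027546, had folds of 4.40 and 3.65.

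The fold enrichments in the list are mostly whole multiples of 0.03013252 (within 0.00002), as 4222 of 5033 are. Among paired peaks the share was 84.0% (interval 81.7 to 86.1%), beside 82.0% of solitary peaks under 1500 bp and 88.7% of peaks in groups of 3 or more. Both peaks of a pair were such multiples in 404 pairs, 1 was in 113 and neither was in 31. What the step reflects was not tested.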
